A study of Homo sapiens with 12 samples.

Results

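DEAD-box and DEAH-box proteins are the largest families of RNA helicases, and they were followed here in the cytoplasmic RNA of U2OS cells, an established human osteosarcoma line, after knock-down of 3 factors of mRNA export. The members were all genes on the array whose probe accession led, through RefSeq, to a symbol made of DDX or DHX, a number and at most a single letter, without pseudogenes, antisense genes and RIGI. This gave 54 genes, 38 with DDX and 16 with DHX symbols, read by 67 probes, out of 27522 gene names on the array. Each of 4 siRNAs had 3 arrays: a control siRNA, and siRNAs against DBP5, against GLE1 and against IPPK, each transfected at 20 nM with Lipofectamine into cells grown in DMEM with serum. All groups shared the parental line, the transfection and the preparation of RNA from the cytosolic fraction with a lysis buffer containing NP40. The study lists a single siRNA for DBP5 and more than one for GLE1, IPPK and the control, and does not say which of the latter were used on the arrays. The cells are therefore transiently depleted cells of 1 line, and effects of the siRNAs on other targets were not tested here.

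These enzymes bind RNA and ATP through a core of conserved motifs, which gave the families their names, and use ATP to part short RNA duplexes or to strip proteins from RNA. DBP5, encoded in humans by DDX19B and by its close relative DDX19A, sits on the cytoplasmic face of the nuclear pore and removes export proteins from mRNA that has come through. GLE1 and inositol hexakisphosphate, which is made by the kinase IPPK, stimulate its ATPase. Other members act in splicing, in the making of ribosomes, in translation and mRNA decay, in mitochondria or in antiviral defence. The question put to the arrays was whether the cytoplasmic mRNA of any other helicase was higher when DBP5 mRNA was depleted.

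The DBP5 siRNA is shown because the messages of both DDX19 genes fell after it. Its strands, as the study lists them, are given 5′ to 3′, with capitals marking the 2 bases at the end of the antisense strand that extend past the sense strand.
DBP5 sense strand: caagguguuuguucuggaugaggct
DBP5 antisense strand: agccucauccagaacaaacaccuugAU
The sense strand had 25 bases and the antisense strand 27. The strands were not matched to transcripts here, so their match to DDX19A and to DDX19B is not given.

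Levels are log2 intensities after cyclic loess normalization between arrays. A change is given as the log2 difference between the means of 3 arrays, with its standard error (SE), or as a ratio to the control mean, with the SD of 3 arrays. A helicase was called higher or lower where limma gave an adjusted p under 0.05 over all 20821 genes tested. Levels of different genes are not compared, since each probe has its own brightness.

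Of the 54 helicases, 51 were measured well enough to be tested. DDX25, the testis relative of DBP5, and the germline helicases DDX4 and DDX53 had no probe well above background on any of the 12 arrays. All 51 tested helicases were read by a probe well above background on all 12 arrays. Replicate arrays of a siRNA correlated between 0.9946 and 0.9971 over all genes, and 70.9 to 73.8% of probes were well above background on the IPPK arrays, against 74.8 to 77.4% on the control arrays. The targeted GLE1 mRNA stood at 0.102 ± 0.0283 of control after GLE1 siRNA and IPPK mRNA at 0.186 ± 0.00761 after IPPK siRNA (SD, n = 3). The log2 mean of GLE1 fell from 8.3 to 5.01. The paper reports smaller reductions of both mRNAs from its arrays, and how far these ratios depend on the processing was not tested. Of 6 mesenchymal markers, 5, with vimentin and RUNX2 among them, were well above background on all 12 arrays. Detection did not set this lineage apart. The blood markers PTPRC and CD79A, the epithelial EPCAM and KRT19 and the liver marker APOA1 were also above background on all 12 arrays, and the blood marker CD3E on 11. After IPPK siRNA, COL1A1 at 0.253 of control and RUNX2 at 0.612 were called lower, as was COL1A2, which was above background on 5 arrays only. After DBP5 siRNA, COL1A1 at 0.779 and COL1A2 were called lower and VIM higher at 1.25, and after GLE1 siRNA SPARC was lower at 0.777. The summed intensity of 3 epithelial markers was 775 to 910 on control arrays, 557 to 606 after DBP5 siRNA, 757 to 934 after GLE1 siRNA and 347 to 580 after IPPK siRNA. Of these, CDH1, above background on 8 arrays only, was called higher in each knock-down, EPCAM lower after DBP5 and IPPK siRNA, and KRT19 lower after DBP5 and IPPK siRNA and higher after GLE1 siRNA. None of 3 blood markers was called against control, and of 2 tested liver markers 1, ALB, above background on 5 arrays only, was called higher after DBP5 and GLE1 siRNA. The summed intensity of MALAT1, KCNQ1OT1 and MEG3, RNAs usually kept in the nucleus, was 7050 to 7180 on control arrays, 9170 to 10600, 11800 to 12000 and 7710 to 8140 in the same order. Taken singly they differed in direction. KCNQ1OT1 was called higher in each knock-down, at 1.59, 1.85 and 1.17 of control, and MEG3 only after GLE1 siRNA, at 1.27. MALAT1 was lower after IPPK siRNA, at 0.472 of control (adjusted p from limma, 0.00378), and stood at 0.689 after DBP5 siRNA and 0.809 after GLE1 siRNA without passing the test. The part of markers or nuclear RNA in the results was not tested. In bulk RNA, fewer cells with a message and less of it per cell cannot be told apart.

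DDX19A and DDX19B showed the largest differences of all helicases. DDX19B measured 10.24, 10.13 and 10.14 on the control arrays and 6.26, 6.19 and 6.19 after DBP5 siRNA, with no overlap. The ratio to the control mean was 0.0643 ± 0.00169 (SD, n = 3; adjusted p from limma, 5.7e-11). DDX19A measured 12.80, 12.79 and 12.71 on the control arrays and 8.64, 8.56 and 8.49 after DBP5 siRNA. It was left at 0.0543 ± 0.00286 of control (adjusted p = 3.5e-11), and the arrays did not overlap for either DDX19 gene. Both genes have a probe of their own and lie next to each other among protein-coding genes in RefSeq. Near-identical stretches of these relatives could let a probe read both, which was not tested, so their values are uncertain as readings of the single genes. With background corrected by normexp the DDX19B difference was -3.24 in place of -3.96 on the log2 scale.

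The pair fell to similar ratios after GLE1 siRNA but not after IPPK siRNA. After GLE1 siRNA, DDX19B measured 9.25, 9.15 and 9.09, below all control arrays, at 0.498 ± 0.0277 of control (adjusted p = 9e-08). DDX19A measured 11.96, 11.90 and 11.89, also below all control arrays, at 0.555 ± 0.0145 of control (adjusted p = 1.5e-07). After IPPK siRNA, DDX19A measured 11.05, 11.05 and 11.02, which is 0.302 ± 0.00399 of control (adjusted p = 2.6e-09). DDX19B measured 10.04, 9.94 and 9.95 there, at 0.872 ± 0.034 of control (adjusted p = 0.0124). All 3 IPPK arrays lay below the control arrays for both genes, but the DDX19B call was lost when control replicate 1 was left out (-0.16 in place of -0.20), with background corrected by normexp (-0.13) and in the values of the authors (-0.18). Compared directly, GLE1 arrays were lower than IPPK arrays for DDX19B, by 0.81 ± 0.06 (SE) on the log2 scale, and higher for DDX19A, by 0.88 ± 0.05 (adjusted p = 6e-07 and 1.6e-07).

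DDX39A and DDX39B, close relatives that load export factors on mRNA in the nucleus, changed little by comparison. DDX39B measured 9.81, 9.58 and 9.80 on the control arrays and 9.89, 10.07 and 9.86 after DBP5 siRNA. The DBP5 arrays lay above the control arrays, but the ratio of 1.16 ± 0.0935 did not pass the test (SD, n = 3; adjusted p = 0.0558). It was called higher without control replicate 1 (0.25) and when only genes well above background on all 12 arrays were tested (0.21). It stood at 0.883 ± 0.065 after GLE1 siRNA and 1.03 ± 0.0259 after IPPK siRNA, without passing the test in either, but was called lower after GLE1 siRNA without control replicate 2 (-0.26) or GLE1 replicate 1 (-0.24). DDX39A measured 15.13, 15.07 and 15.09 on the control arrays and 14.82, 15.01 and 14.95 after DBP5 siRNA, 0.89 ± 0.0575 of control (adjusted p = 0.0251). That call was lost without control replicate 1 (-0.15), control replicate 3 (-0.17) or DBP5 replicate 1 (-0.12), with quantile normalization (-0.15) and with only the 6 arrays compared (-0.17). DDX39A fell to 0.761 ± 0.025 of control after GLE1 siRNA (adjusted p = 0.00011) and to 0.864 ± 0.0212 after IPPK siRNA (adjusted p = 0.00819), with no overlap with the control arrays in either. With all arrays and all 20821 genes in the limma fit, no export helicase was called higher in any of the 3 knock-downs, the exceptions being the 2 settings given for DDX39B after DBP5 siRNA.

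**Figure D1:**
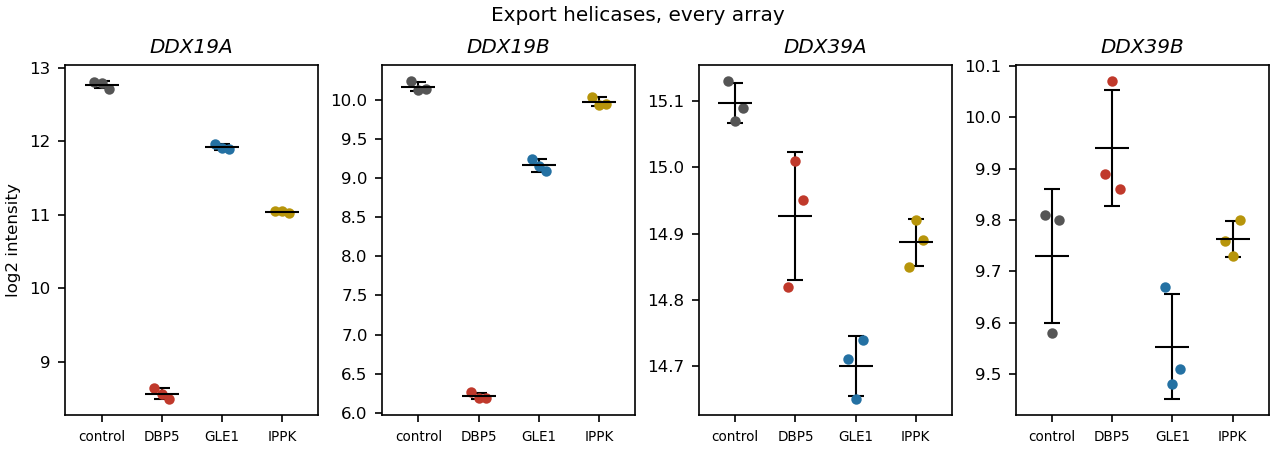
Log2 intensity (vertical axis, its range set for each gene) of the 4 export helicases that were tested, on every array of the 4 siRNAs (horizontal axis). Points are arrays, and bars show the mean ± SD of 3 arrays. DDX19A and DDX19B drop to 8.56 and 6.21 on average after DBP5 siRNA, whereas the mean of DDX39A moves by -0.39 at most, after GLE1 siRNA.

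Over all tested helicases, DBP5 siRNA lowered more than it raised. After DBP5 siRNA, 19 of 51 helicases were called lower, against a background of 27.1% of all genes, and 10 were called higher, against 27.3% of all genes. As shares these are 37.3% and 19.6% of the helicases. Their median difference was -0.09 on the log2 scale, beside -0.02 over all genes tested. Without DDX19A and DDX19B the counts were 17 lower and 10 higher of 49, with a median of -0.05.

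The 10 helicases called higher after DBP5 siRNA came from several processes. They were DHX32, of little known function, the ribosome factors DDX18, DDX52 and DDX54, the splicing factors DDX41 and DDX5, the translation and decay factors DHX29 and DDX6, DDX20, a part of the SMN complex that assembles splicing particles, and mitochondrial DHX30. The largest rise was that of DHX32, which measured 8.41, 8.33 and 8.38 on the control arrays and 9.47, 9.45 and 9.31 after DBP5 siRNA. It stood at 2.05 ± 0.118 of control (SD, n = 3; adjusted p = 2.3e-07). The same helicase was at 2.05 ± 0.0687 after GLE1 siRNA and 2.03 ± 0.118 after IPPK siRNA. The differences between knock-downs for DHX32 were at most 0.02 ± 0.06 (SE) on the log2 scale. These ratios share the 3 control arrays, so a rise in each knock-down and a low value in the control arrays cannot be told apart.

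Next came DDX18, which is needed for the large ribosomal subunit. It measured 11.82, 11.85 and 11.70 on the control arrays and 12.57, 12.45 and 12.56 after DBP5 siRNA, 1.67 ± 0.0754 of control (adjusted p = 1.3e-06). DDX41, a spliceosome component also known as a sensor of foreign DNA, measured 11.32, 11.25 and 11.39 on the control arrays and 11.72, 12.12 and 12.20 after DBP5 siRNA. Its arrays did not overlap and its ratio was 1.62 ± 0.279 (adjusted p = 0.00085). DDX52, a factor of the small ribosomal subunit, measured 6.23, 6.03 and 6.15 on the control arrays and 7.16, 6.81 and 6.48 after DBP5 siRNA. All DBP5 arrays lay above control, but they spread widely, and the ratio was 1.60 ± 0.384 (adjusted p = 0.00219). That call was lost in the methods' t-test, paired over slides, even without adjustment. DHX29, which helps the small subunit scan structured leaders, measured 10.74, 10.70 and 10.69 on the control arrays and 11.01, 11.10 and 11.09 after DBP5 siRNA. It rose to 1.28 ± 0.0398 of control (adjusted p = 0.00025), again with no overlap.

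Several of these calls were weak. DDX54, a nucleolar helicase, measured 14.43, 14.44 and 14.48 on the control arrays and 14.77, 15.01 and 15.04 after DBP5 siRNA, 1.40 ± 0.141 of control (SD, n = 3; adjusted p = 0.0176). Its other probe gave the opposite, 0.701 of control (adjusted p = 2.2e-05), so the direction for DDX54 is not settled. The call was also lost without DBP5 replicate 2 (0.45) or DBP5 replicate 3 (0.44). DDX6, a helicase of mRNA decay bodies, was at 1.17 ± 0.134 with overlapping arrays (adjusted p = 0.0474), a call lost in 5 of the 6 fits that left an array out, with differences from 0.16 to 0.25. DDX20, DDX5 and DHX30 rose to 1.13 ± 0.0558, 1.20 ± 0.00483 and 1.21 ± 0.0838 of control, and the DDX20 call was lost with only the 6 arrays compared (0.17). For DHX30, a factor of the mitochondrial ribosome, the other probe gave 1.07 and did not pass the test (adjusted p = 0.546).

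**Figure D2:**
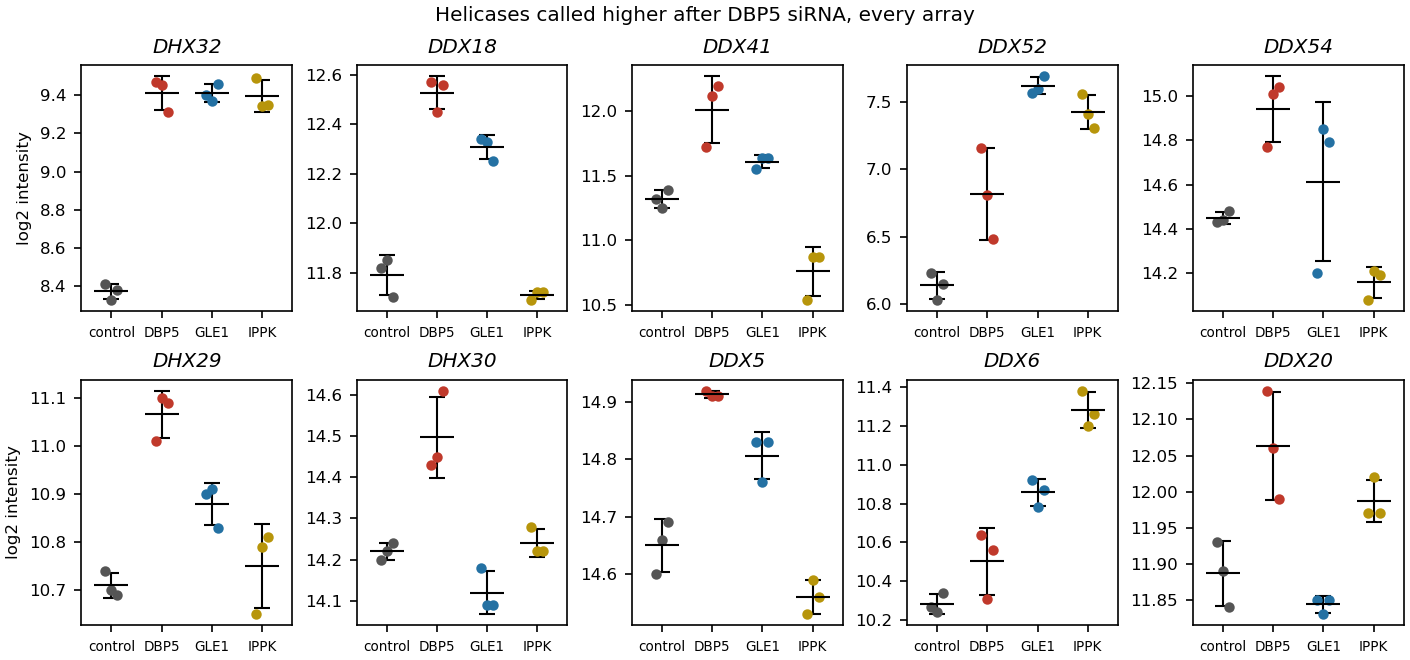
Log2 intensity (vertical axes, each with its own range and not starting at 0) of the 10 helicases called higher after DBP5 siRNA, on every array of the 4 siRNAs (horizontal axis). Points are arrays and bars the mean ± SD of 3. DHX32 stands at 2.03 to 2.05 of control in all knock-downs, DDX6 is highest after IPPK siRNA, and DDX5, DDX18, DDX20, DDX41, DHX29 and DHX30 have their highest means after DBP5 siRNA, as has DDX54 by the probe plotted, though its other probe read 0.701 of control there.

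For a rise particular to DBP5 knock-down, DBP5 arrays would also have to exceed the other knock-downs. Of the 10, 4 were called higher against control, against GLE1 siRNA and against IPPK siRNA: DDX18, DDX41, DHX29 and DHX30. Over all genes, 5.65% were called higher in all of these 3 comparisons, which share the DBP5 arrays. Passing them does not confine a rise to DBP5 siRNA. DDX18 and DHX29 were also called higher than control after GLE1 siRNA, at 1.43 and 1.12 of control. DDX18 was 1.17 ± 0.0527 of the GLE1 mean and 1.77 ± 0.0798 of the IPPK mean (SD, n = 3; adjusted p = 0.00566 and 9.4e-07). DDX41 was 1.32 ± 0.229 and 2.39 ± 0.413 of these means (adjusted p = 0.0195 and 1.7e-05). DHX29 was 1.14 ± 0.0354 and 1.24 ± 0.0386 (adjusted p = 0.014 and 0.00076), and DHX30 was 1.30 ± 0.0899 and 1.19 ± 0.0826 (adjusted p = 0.0002 and 0.00337). Against GLE1 siRNA the DDX41 call was lost without DBP5 replicate 2 (0.35), DBP5 replicate 3 (0.31) or GLE1 replicate 1 (0.37), and the DHX29 call without GLE1 replicate 3 (0.16), with normexp (0.24) and in the values of the authors (0.25). The other DHX30 probe was not called against either (0.22 and 0.33; adjusted p from limma, 0.176 and 0.055). In the methods' t-test, paired over slides, each of the 4 lost at least 1 of these calls. Those of DDX18 and DDX41 against GLE1 siRNA and of DHX30 against IPPK siRNA were lost even without adjustment, and those of DHX29 against control and GLE1 siRNA with adjustment. None of the 4 is known as a helicase of the nuclear pore.

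The helicases that fell after DBP5 siRNA, other than DDX19A and DDX19B, were led by ribosome factors. DDX21, a nucleolar helicase of ribosomal RNA synthesis, measured 14.22, 14.17 and 14.09 on the control arrays and 13.33, 13.16 and 13.16 after DBP5 siRNA, 0.52 ± 0.0352 of control (SD, n = 3; adjusted p = 2.9e-07). DDX31, also nucleolar, measured 10.59, 10.66 and 10.35 on the control arrays and 9.84, 9.71 and 9.53 after DBP5 siRNA, 0.559 ± 0.0598 of control (adjusted p = 4.6e-05). The arrays did not overlap for either gene, and the other DDX31 probe gave 0.598 of control. DDX10, which acts on the precursor of ribosomal RNA, measured 13.58, 13.60 and 13.54 on the control arrays and 12.85, 12.74 and 12.72 after DBP5 siRNA, 0.572 ± 0.0277 of control (adjusted p = 4.5e-07). DDX28, of the mitochondrial RNA granule, stood at 0.689 ± 0.0055 of control (adjusted p = 1e-05), and DDX55, of the large ribosomal subunit, at 0.709 ± 0.00777 (adjusted p = 4.5e-06). DDX60, an interferon-induced antiviral helicase, measured 7.39, 6.92 and 7.51 on the control arrays and 6.83, 6.86 and 6.64 after DBP5 siRNA. The groups came close without overlap, and the ratio was 0.707 ± 0.056 (adjusted p = 0.00941), a call lost in the methods' t-test even without adjustment. Against GLE1 siRNA and against IPPK siRNA as well, 6 helicases were called lower after DBP5 siRNA, beside 6.52% of all genes. They were the DDX19 pair, DDX21, DDX28, DDX31 and DDX60L, a relative of DDX60.

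More helicases were called lower in GLE1 knocked-down cells than in the other knock-downs. After GLE1 siRNA, 26 of 51 were lower, against 30.4% of all genes, and 12 were higher, against 32.0% of all genes. The helicase shares were 51.0% and 23.5%. Their median was -0.22 on the log2 scale, beside 0.03 over all genes tested. Without the DDX19 pair, 24 of 49 were lower and 12 higher.

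The largest fall after GLE1 siRNA was that of DHX57, of little known function. It measured 9.59, 9.57 and 9.69 on the control arrays and 8.54, 8.63 and 8.51 after GLE1 siRNA, 0.48 ± 0.0225 of control (SD, n = 3; adjusted p = 1.3e-07). Its other probe gave 0.436. DDX27, which acts in ribosomal RNA maturation, measured 14.80, 14.86 and 14.75 on the control arrays and 13.82, 13.82 and 13.89 after GLE1 siRNA, 0.513 ± 0.0138 of control (adjusted p = 1.3e-07). DDX50, the neighbour and close relative of DDX21, measured 5.94, 6.08 and 6.27 on the control arrays and 5.11, 5.34 and 5.24 after GLE1 siRNA, 0.549 ± 0.0435 of control (adjusted p = 0.00059). DDX10 was at 0.557 ± 0.0262 of control, close to its ratio after DBP5 siRNA, and the difference of 0.04 ± 0.05 (SE) between these knock-downs did not pass the test. In all these genes the GLE1 arrays lay below the control arrays.

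Among the rises after GLE1 siRNA, DDX52 was the largest. It measured 7.57, 7.60 and 7.69, well above the control arrays, at 2.80 ± 0.125 of control (SD, n = 3; adjusted p = 5.8e-06). On the control arrays DDX52 read 6.23, 6.03 and 6.15, close to the lowest mean of any helicase probe used, 6.01. DDX52 was called higher in each knock-down against the same control arrays, so a low value in these and a rise in each knock-down cannot be told apart. DDX60L, which lies next to DDX60 and is likewise antiviral, measured 10.31, 10.24 and 10.24 on the control arrays and 11.14, 11.09 and 11.15 after GLE1 siRNA, 1.82 ± 0.0374 of control (adjusted p = 7.7e-08). DDX60 itself measured 6.86, 6.75 and 6.95 after GLE1 siRNA, 0.745 ± 0.0519 of control (adjusted p = 0.0187). The DDX60 arrays overlapped with control, and that call was lost without control replicate 1 (-0.37), control replicate 3 (-0.31) or GLE1 replicate 2 (-0.37), and with only the 6 arrays compared (-0.43). DDX6 rose to 1.49 ± 0.0735 of control (adjusted p = 0.00015), DDX18 to 1.43 ± 0.0458 (adjusted p = 1.2e-05) and DDX49, a ribosome factor, to 1.35 ± 0.039 (adjusted p = 0.0012).

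In the limma fit to all arrays, the fewest helicases were called in IPPK knocked-down cells. After IPPK siRNA, 18 of 51 were lower, against 28.2% of all genes, and 6 were higher, against 27.3% of all genes. The helicase shares were 35.3% and 11.8%, and their median was -0.08 beside -0.03 over all genes tested.

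After DDX19A, the largest falls in IPPK knocked-down cells were those of DHX38 and DHX40. DHX38, which drives the second step of splicing, measured 10.66, 10.51 and 10.45 on the control arrays and 9.63, 9.81 and 9.83 after IPPK siRNA, 0.581 ± 0.0446 of control (SD, n = 3; adjusted p = 3.2e-05). DHX40, of little known function, measured 9.37, 9.15 and 9.29 on the control arrays and 8.48, 8.55 and 8.47 after IPPK siRNA, 0.586 ± 0.0187 of control (adjusted p = 9e-06). Both were clear of the control arrays. DDX24, a ribosome factor, fell to 0.651 ± 0.0437 of control (adjusted p = 0.00015). The probe named for DDX3Y, a close relative of the translation helicase DDX3X, read 0.672 ± 0.0266 of control (adjusted p = 5.1e-05). The other DDX3Y probe was never well above background, and whether the first also reads DDX3X was not tested, so its value is uncertain as a reading of DDX3Y mRNA. DDX41, which had risen after DBP5 siRNA, measured 10.54, 10.87 and 10.87 after IPPK siRNA, 0.677 ± 0.0853 of control (adjusted p = 0.00318).

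The 6 rises after IPPK siRNA were those of DDX52, DHX32, DDX6, DHX35, DDX46 and DDX1. DDX52 measured 7.56, 7.41 and 7.31, at 2.45 ± 0.211 of control (SD, n = 3; adjusted p = 2.4e-05). DDX6 measured 10.27, 10.24 and 10.34 on the control arrays and 11.38, 11.20 and 11.26 after IPPK siRNA, 2.00 ± 0.13 of control (adjusted p = 3.2e-06). Both were well clear of the control arrays. The splicing helicases DHX35 and DDX46 reached 1.22 ± 0.0768 and 1.22 ± 0.0954 of control (adjusted p = 0.00106 and 0.0135), and DDX1, part of the tRNA ligase complex, 1.16 ± 0.0258 (adjusted p = 0.00622). The DDX46 call was lost without control replicate 1 (0.23) or IPPK replicate 3 (0.24). That of DDX1 was lost when arrays were scaled to the 75th percentile (0.14), with normexp (0.15) and in the values of the authors (0.12).

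**Figure D3:**
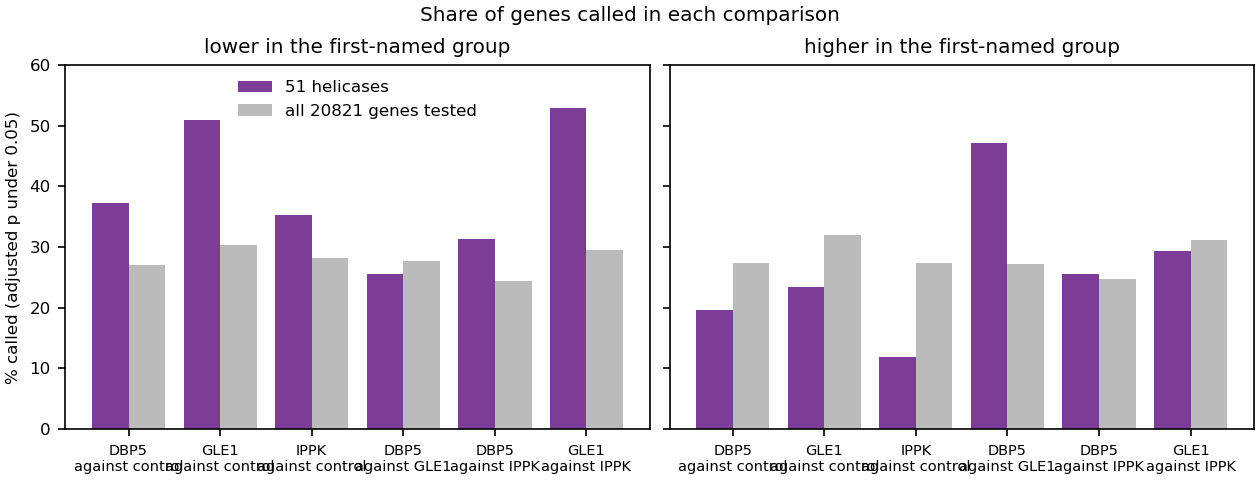
Percentage (vertical axis) of the 51 tested helicases, purple bars, and of all 20821 genes tested, grey bars, that limma called lower (left) or higher (right) in the first-named group of each comparison (horizontal axis). Against control, helicases were called higher at 19.6, 23.5 and 11.8%, each under the share of all genes.

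Knock-downs were next compared with each other. Between DBP5 and GLE1 siRNA, 24 helicases were higher after DBP5 siRNA, against 27.2% of all genes, and 13 lower, against 27.7% of all genes. The median difference was 0.18, beside -0.04 over all genes tested. The largest differences upward were those of DDX50 (2.09 ± 0.389 of the GLE1 mean; adjusted p = 0.00017), DDX42, which works with the branch site machinery (1.85 ± 0.278; 8.8e-05), and DHX57 (1.84 ± 0.105; 8.5e-07). Downward, leaving the DDX19 pair aside, they were DDX60L (0.434 ± 0.00971; adjusted p = 1.7e-08), DDX31 (0.47 ± 0.0502; 6.5e-06) and DDX52 (0.573 ± 0.137; 0.00073). The methods' t-test lost the DDX52 call even without adjustment and the DDX42 call with adjustment.

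Between DBP5 and IPPK siRNA, 13 helicases were higher after DBP5 siRNA, against 24.7% of all genes, and 16 lower, against 24.4% of all genes. The median was 0.01, as over all genes tested. DDX41 at 2.39 ± 0.413, DDX18 at 1.77 ± 0.0798 and DHX38 at 1.77 ± 0.152 of the IPPK mean led upward (SD, n = 3; adjusted p = 1.7e-05, 9.4e-07 and 3.2e-05). DDX21 at 0.543 ± 0.0368, DDX10 at 0.555 ± 0.0268 and DDX60 at 0.577 ± 0.0457 led downward, leaving the DDX19 pair aside (adjusted p = 7.3e-07, 5.1e-07 and 0.00069).

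GLE1 and IPPK knocked-down cells differed in the largest number of helicases. After GLE1 siRNA, 27 were lower than after IPPK siRNA, against 29.6% of all genes, and 15 were higher, against 31.2% of all genes. The median was -0.17 beside 0.04 over all genes tested. DDX50 at 0.436 ± 0.0346, DDX10 at 0.54 ± 0.0254 and DDX42 at 0.541 ± 0.0763 of the IPPK mean were lowest (SD, n = 3; adjusted p = 6.2e-05, 1.5e-07 and 7.3e-05). DDX60L at 2.04 ± 0.042, DDX49 at 1.98 ± 0.0573 and DDX19A at 1.84 ± 0.0481 were highest (adjusted p = 3.1e-08, 3e-06 and 1.6e-07). No arrays of GLE1 and IPPK siRNA overlapped for these 6 genes.

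**Figure D4:**
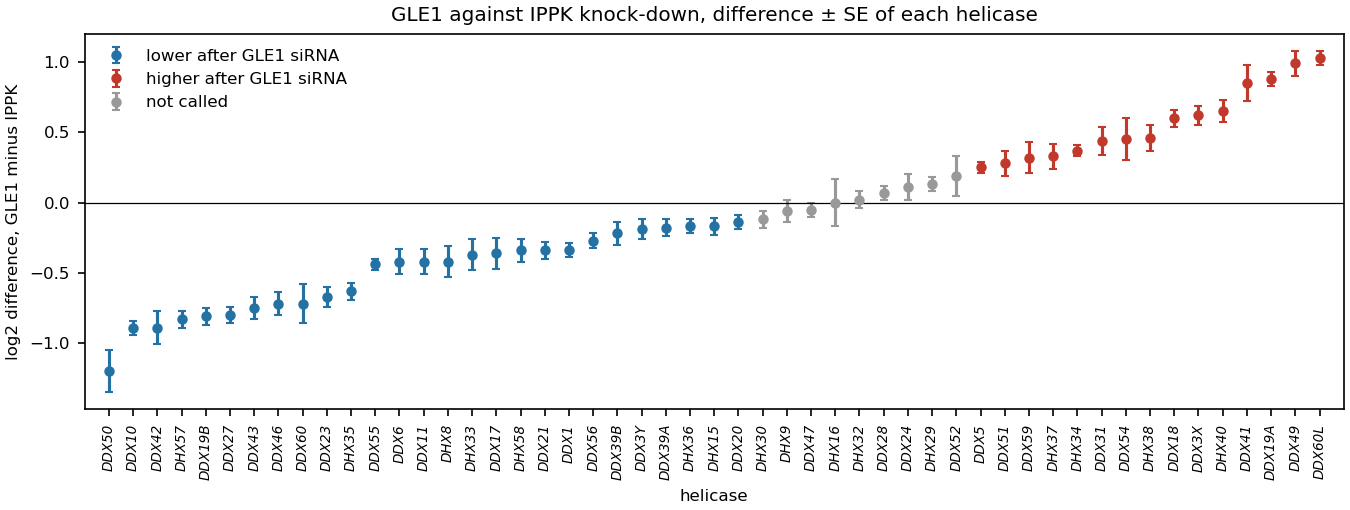
Log2 difference of GLE1 minus IPPK arrays (vertical axis) for each of the 51 tested helicases, in rising order along the horizontal axis. Points are differences of the means of 3 arrays, bars the SE of limma, and colours the call. Of the 51, 27 were lower, 15 higher and 9 not called, from DDX50 at -1.20 to DDX60L at 1.03.

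The helicases were also described by process. Of 11 splicing helicases, 8 were lower after GLE1 siRNA, 1 was higher and 2 did not pass the test, with a median of -0.33. The 8 include DDX17, whose other probe read the opposite direction, and without it 7 of 10 were lower. Beside this, 51.0% of all tested helicases and 30.4% of all genes were lower, and 32.0% of all genes higher. DDX42 was lowest at 0.568 ± 0.0801 of control, followed by DHX8, which releases spliced mRNA, at 0.626 ± 0.0406, and DDX23 at 0.708 ± 0.0194 (SD, n = 3; adjusted p = 0.00012, 0.00037 and 0.00011). DDX5 was the exception at 1.12 ± 0.0322 (adjusted p = 0.008). After DBP5 siRNA 1 was lower and 2 were higher, and after IPPK siRNA 2 were lower and 2 higher, with medians of 0.02 and -0.06, beside 27.1% and 27.3% of all genes lower and higher after DBP5 siRNA and 28.2% and 27.3% after IPPK siRNA. DDX17 is not called in these counts, though its other probe was called higher in both, at 1.61 of control. Compared directly, 6 splicing helicases were higher and none lower after DBP5 siRNA than after GLE1 siRNA, beside 27.2% and 27.7% of all genes, with a median of 0.36 beside -0.04 over all genes tested.

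Of 16 helicases of ribosome making, 7 were lower and 3 higher after DBP5 siRNA, 7 lower and 4 higher after GLE1 siRNA, and 4 lower and 1 higher after IPPK siRNA. The 3 higher after DBP5 siRNA include DDX54, whose other probe was called lower, and without it 7 of 15 were lower and 2 higher. Of all genes, 27.1%, 30.4% and 28.2% were lower and 27.3%, 32.0% and 27.3% higher in these comparisons. The medians of these helicases were -0.08, -0.10 and -0.07, beside -0.02, 0.03 and -0.03 over all genes tested. Members ran in both directions within each knock-down, from DDX21 at 0.52 to DDX18 at 1.67 of control after DBP5 siRNA, and from DDX27 at 0.513 to DDX52 at 2.80 after GLE1 siRNA. DDX21 and DDX50 are neighbours in RefSeq. After DBP5 siRNA DDX21 was at 0.52 of control, while DDX50 stood at 1.15 ± 0.214 without passing the test. After GLE1 siRNA both were lower, DDX21 at 0.758 ± 0.0118 and DDX50 at 0.549 of control (SD, n = 3; adjusted p from limma, 0.00011 and 0.00059). DDX47, a nucleolar helicase, passed the test in none of the 6 comparisons, with a ratio to control between 1.02 and 1.07, but was called higher with quantile normalization after DBP5 siRNA (0.13) and for DBP5 against GLE1 siRNA (0.17).

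Of 7 helicases of translation and decay, 3 were lower and 3 higher after DBP5 siRNA, 2 lower and 4 higher after GLE1 siRNA, and 4 lower and 1 higher after IPPK siRNA, to be read beside the same shares of all genes. The list counts DDX20, which is better known from the SMN complex, and without it 3 of 6 were lower and 2 higher after DBP5 siRNA. The lower counts include DDX3Y in each knock-down, whose probe is of uncertain reading. They also include DHX34 after DBP5 and IPPK siRNA, though its other probe read 1.14 and 1.02 of control there, not called. DDX3X, which helps translation start, stood at 0.957, 0.957 and 1.09 of the control mean on the control arrays, 1.26, 1.23 and 1.21 after GLE1 siRNA and 0.801, 0.801 and 0.809 after IPPK siRNA, with no overlap. On average it rose to 1.23 ± 0.0227 of control in the former and fell to 0.803 ± 0.0047 in the latter (SD, n = 3; adjusted p = 0.00215 and 0.00196). After DBP5 siRNA it stood at 1.05 ± 0.0746 and was not called. DHX36, which unwinds G-quadruplexes, fell to 0.757 ± 0.00385 of control after GLE1 siRNA (adjusted p = 6.3e-05) and 0.851 ± 0.0151 after IPPK siRNA (adjusted p = 0.00331).

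The smaller groups are too few to set against the shares of all genes called lower and higher, which were 27.1% and 27.3% after DBP5 siRNA, 30.4% and 32.0% after GLE1 siRNA, and 28.2% and 27.3% after IPPK siRNA. Of 3 antiviral helicases, 2 were lower after DBP5 siRNA (DDX60 and DDX60L), 1 was lower and 1 higher after GLE1 siRNA, and DDX60L alone was lower after IPPK siRNA, at 0.891 ± 0.0376 of control (adjusted p = 0.0121), a call lost without control replicate 1 (-0.14) or IPPK replicate 2 (-0.14). DHX58, a regulator of RNA sensing, was not called against control in any knock-down, though without control replicate 1 it was called lower after DBP5 siRNA (-0.30) and GLE1 siRNA (-0.28), and without DBP5 replicate 2 after DBP5 siRNA (-0.28). Of the germline helicases, only DDX43 was tested, and it fell to 0.575 ± 0.024 of control after GLE1 siRNA (SD, n = 3; adjusted p = 6.4e-06), where its arrays lay below the control arrays. DDX43 stood at 0.978 ± 0.11 and 0.969 ± 0.0277 after DBP5 and IPPK siRNA, not called in either. Of 4 other nuclear helicases, 1 was lower after DBP5 siRNA, DDX11, a DNA helicase of sister chromatid cohesion, at 0.727 ± 0.072 of control (adjusted p = 0.00102). After GLE1 siRNA 3 were lower and 1 was higher, and after IPPK siRNA 2 were lower and 1 was higher, beside 30.4% and 32.0% of all genes in the former and 28.2% and 27.3% in the latter. DDX11 also fell to 0.612 ± 0.0462 after GLE1 siRNA and 0.818 ± 0.0489 after IPPK siRNA, and its 2 other probes were lower in each knock-down too. The DDX11 call after IPPK siRNA was lost without control replicate 1 (-0.26), IPPK replicate 2 (-0.27) or IPPK replicate 3 (-0.26).

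**Figure D5:**
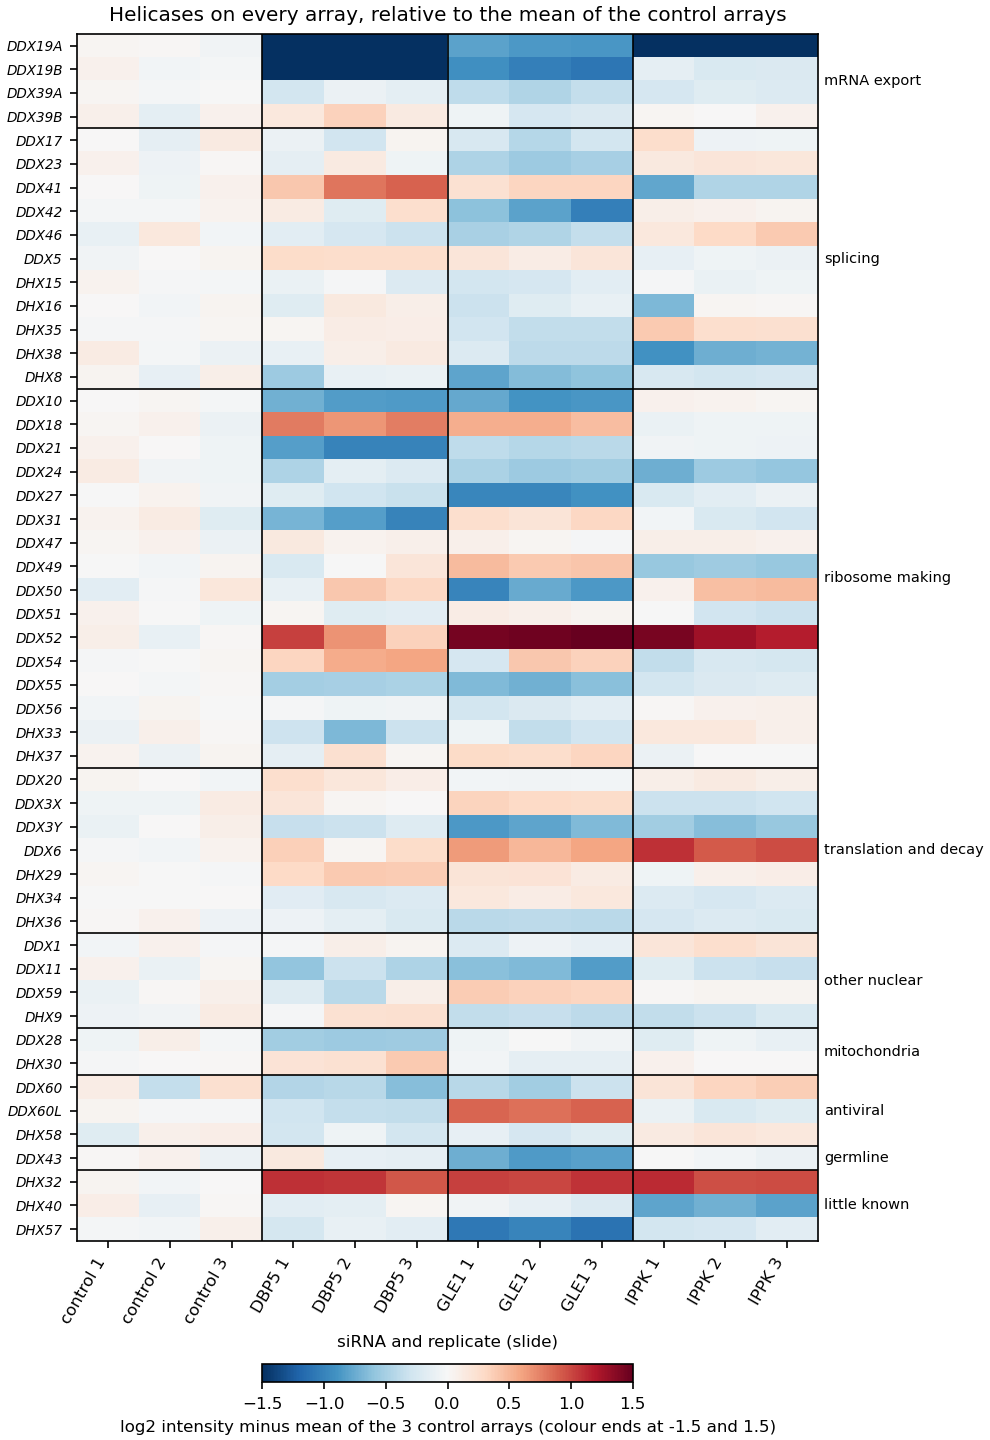
Log2 intensity of each tested helicase (rows, grouped by process) on each array (columns, siRNA and replicate), minus the mean of the 3 control arrays, with blue for lower, red for higher and colour ending at -1.5 and 1.5. DHX32 and DDX52 are red in every knock-down, DDX19A and DDX19B blue in every one, and 8 of the 11 splicing rows were called lower in the GLE1 columns, DDX17 among them, whose other probe, not shown, read 1.14 of control.

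Of 12 helicases with more than 1 probe, 4 had another probe that disagreed in direction with the brightest in a comparison where either was called. Beside DDX54, described above, DDX17, a relative of DDX5, was lower after GLE1 siRNA by its brighter probe (0.801 ± 0.0528 of control; adjusted p = 0.0321), and stood at 1.14 by the other probe without passing the test. The call of the brighter DDX17 probe was lost without control replicate 1 (-0.32), control replicate 3 (-0.26), GLE1 replicate 2 (-0.27) or GLE1 replicate 3 (-0.34), with normexp (-0.26) and in the values of the authors (-0.29). After DBP5 siRNA these probes gave 0.924, not called, and 1.61 (adjusted p = 8.3e-05). DHX34, a factor of nonsense-mediated decay, was at 0.868 ± 0.0215 of control after DBP5 siRNA by its brighter probe (adjusted p = 0.0015) and at 1.14 by the other, which was not called. For DDX51, a ribosome factor, the brighter probe gave 1.05 after GLE1 siRNA, not called, and the other 0.806 (adjusted p = 0.0127). The DDX54 probes carry different accessions, while those of each of the other 3 genes carry the same accession.

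Helicases outside the naming rule and partners of DBP5 at the pore were read for context. Of 9 related helicases such as the eIF4A proteins, 3 were lower and 5 higher after DBP5 siRNA, beside 27.1% and 27.3% of all genes. YTHDC2, a helicase that binds methylated RNA, was called higher in each knock-down, at 1.73, 2.31 and 1.78 of control. EIF4A1, the main helicase of translation initiation, was at 0.591 of control after DBP5 siRNA (adjusted p = 6.2e-07), while its relative EIF4A2 was at 1.55 (adjusted p = 8.3e-06). Of 9 pore partners, 2 were lower and 3 higher after DBP5 siRNA. The largest difference was that of NXT2, a partner of export receptors, at 8.05 ± 1.27 of control after DBP5 siRNA, 8.39 ± 0.123 after GLE1 siRNA and 10.3 ± 0.971 after IPPK siRNA (SD, n = 3; adjusted p from limma, 1e-08, 3.8e-09 and 4.2e-09). NUP214, the pore protein on which DBP5 docks, was higher at 1.71 of control after DBP5 siRNA (adjusted p = 1.7e-05), and at 1.56 and 1.44 after GLE1 and IPPK siRNA. These ratios share the control arrays, so a rise in each knock-down and a low value in the control arrays cannot be told apart. After DBP5 siRNA IPPK was lower at 0.419 of control (adjusted p = 8.3e-08). GLE1 mRNA was at 0.777 of control after DBP5 siRNA and did not pass the test (adjusted p = 0.065).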

How the data were processed

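Cytoplasmic RNA was labelled with Cy3 and hybridised to Agilent whole human genome arrays, 1 array per sample, with 1 array of each siRNA on each of 3 slides. The authors deposited Feature Extraction output, in which a spot has a linear intensity after background subtraction, median intensities of spot and background, and flags. They also deposited a table of log2 values normalised by LOESS in R, used here as an alternative. Outlier and control spots were left out, spots of a probe were averaged, and log2 intensity was normalised by cyclic loess. Of 34127 probes, 26449 were named through RefSeq by accession. The probe with the highest mean stood for a gene. Genes entered the test if, for any siRNA, the 3 arrays all had that probe well above background. This gave 20821 genes, of which 18420 passed on all 12 arrays.

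limma 3.58.1 in R 4.3.3 was fitted to all 12 arrays with a mean for each siRNA. Tests were two-sided, and p-values were adjusted by Benjamini-Hochberg over the genes of each of 6 comparisons. The script was tested on simulated data. Comparisons against control share the control arrays. Replicate numbers mark the slides. Arrays of the same number deviated together from their group means (18 pairs, r from 0.318 to 0.513), so the number was also fitted as a block. Pairs of different numbers gave r from -0.285 to -0.0493 (36 pairs). Since deviations within a group cancel, positive values for the same number push the others negative, so these add no separate evidence. All 199 called differences had the same direction on all 3 slides. They were called on these same arrays, so the agreement is no independent evidence. The methods call the array experiments independent, while the labels name no separate cultures, so p-values measure the spread between these arrays, which may be partly technical. Arrays give no counts, and their number limits the precision.

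The members and the lists of processes, pore partners, markers and nuclear RNAs were chosen with earlier results of these data known. Named with values were DDX19A, DDX19B and the export helicases. Against control, the 6 largest rises and falls were named, and between knock-downs the 3 largest differences each way, among called helicases above background on all arrays and without overlap between groups. DDX19A and DDX19B were left out of these after DBP5 siRNA. Helicases named beside these were chosen after their values were seen.

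Other settings were quantile normalization, scaling to the 75th percentile, background correction by normexp on median intensities (offset 50), the values of the authors, other filters and probe choices, the replicate block, only the 6 arrays compared, the methods' t-test, and leaving out each array. For its array gene lists the paper names rank product and a fold cut, which were not run here. Pairing the t-test over slides was a choice made here.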

Additional observations from a re-analysis of the deposited data

How the results depend on the processing

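Counts of called helicases stayed within 1.5 times their main value under all settings but the methods' t-test, which was run as a paired test over the slides. With adjusted p-values it called 9 helicases lower and 3 higher after DBP5 siRNA, and 12 lower without adjustment. It called 11 lower after IPPK siRNA, 7 lower and 6 higher for DBP5 against GLE1, and 8 lower and 6 higher for DBP5 against IPPK siRNA, all adjusted. Of the calls against control given with values, the adjusted t-test lost those of DDX5, DDX6, DDX11, DDX39A, DDX41, DDX52, DDX54, DDX60, DHX29, DHX30 and DHX34 after DBP5 siRNA. It lost DDX3X, DDX5, DDX42 and DDX60 after GLE1 siRNA, and DDX3X, DDX11, DDX24, DDX39A, DDX41, DDX46, DHX35, DHX36 and DHX38 after IPPK siRNA. Between knock-downs it lost DDX18, DDX41, DDX42, DDX52, DHX29 and DHX30 for DBP5 against GLE1, and DDX28, DDX60, DDX60L and DHX30 for DBP5 against IPPK siRNA. Leaving out each array of the groups compared in turn, 16 to 18 were lower and 8 to 10 higher after DBP5 siRNA, 23 to 27 lower and 11 to 13 higher after GLE1 siRNA, and 14 to 19 lower and 5 to 7 higher after IPPK siRNA. The ranges were 12 to 13 lower and 20 to 24 higher for DBP5 against GLE1, 15 to 18 lower and 13 to 14 higher for DBP5 against IPPK, and 20 to 25 lower and 13 to 14 higher for GLE1 against IPPK.

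With the replicate block, calls were gained for DDX41 and DDX31 after GLE1 siRNA (adjusted p = 0.0232 and 0.0264), DDX50 and DDX51 after IPPK siRNA (0.00739 and 0.016), and DDX51 and DDX54 for DBP5 against GLE1 (0.0283 and 0.0328). They were lost for DDX27 after IPPK siRNA (0.0521), DDX24 for DBP5 against GLE1 (0.0525) and DDX39B for GLE1 against IPPK (0.0552). The block changed no other call.

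Signs turned with the choice of probe, in log2 differences. The mean of the probes gave 0.29 for DDX17 after DBP5 siRNA, -0.12 for DDX51 after GLE1 siRNA, and for DDX54 -0.01 after DBP5 siRNA and -0.36 against GLE1 siRNA. The other probe gave 0.69 and 0.18 for DDX17 after DBP5 and GLE1 siRNA. For DDX51 it gave -0.31 after GLE1 siRNA, 0.42 for DBP5 against GLE1 and -0.21 for GLE1 against IPPK. For DDX54 it gave -0.51 after DBP5 siRNA and -1.04 against GLE1 siRNA, and for DHX34 0.18 and 0.03 after DBP5 and IPPK siRNA. The cause was not tested. With 3 arrays a group, the SE of a log2 difference ran from 0.04 to 0.17, widest for DHX16, and smaller differences may be missed.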
